A study of Mus musculus with 6 samples.

Results

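The genes described here are the mouse counterparts of 40 genes in the part of human 22q11 that is lost in 22q11 deletion syndrome, including its distal forms. They were taken from a fixed list of names, with *Hic2* itself, which lies among them, left out. Each gene was represented by the transcript cluster, the array's unit for a gene, that was annotated to it alone, and each had at most 1 such cluster. Of the 40 genes, 36 had one, out of 14860 genes so represented on the array. *Gp1bb* and *Klhl22* share a cluster with a neighbour or with an unrelated gene (*Septin5* and *Bod1*), and no cluster was annotated to *Gsc2* or *Ydjc* alone in the annotation used here.

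RNA from hearts at embryonic day 9.5 was hybridised to 6 Affymetrix Mouse Exon 1.0 ST arrays. The 3 wildtype arrays (*Mesp1+/+; Hic2 FL/FL*) and the 3 conditional mutant arrays (*Mesp1Cre/+; Hic2 FL/FL*) were each made from 4 to 6 pooled whole hearts, blood included. By the study's methods the pools were independent biological replicates, from embryos in which no phenotype was seen. The labels give both genotypes 2 floxed copies of *Hic2*, although the methods also allow wildtype embryos with a single floxed copy. Cre is made from the *Mesp1* locus, and removes *Hic2* from the anterior mesoderm and what arises from it, part of the blood lineage included. The Cre cassette replaces *Mesp1*, so the mutants also have a single copy of that gene, and a group with Cre alone was not analysed here. Values are log2 signals made by the authors with RMA, and a difference is always the mutant mean minus the wildtype mean on that scale.

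In most people with the syndrome a long stretch of one chromosome copy is missing, so that all genes within it are present in a single dose. Outflow tract and aortic arch defects are a hallmark. *TBX1*, a T-box transcription factor of the pharynx and of the second heart field that supplies the outflow tract, and the signalling adaptor *CRKL* are the genes best linked to them, and *HIC2* lies in the distal interval. In the mouse the whole set is kept together on chromosome 16, in an order that differs from the human one, with *Hic2* between *Ube2l3* and *Pi4ka*. The stretch is dense with genes transcribed away from each other from adjoining starts.

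Of the pairs with starts close together, 5 involve 2 listed genes each, with starts less than 1000 base pairs apart in RefSeq (assembly GRCm38.p6). They are *Pi4ka* and *Snap29* at 135 base pairs, *Ranbp1* and *Trmt2a* at 189, *Tango2* and *Arvcf* at 84 (from the outermost *Tango2* start), *Cdc45* and *Ufd1* at 322, and *Mrpl40* and *Hira* at 113. The DNA between the starts is shown for the 4 closest pairs, because a pair of this kind draws on the same short stretch for both transcripts. Each stretch is given on the plus strand. Capitals mark GGGCA or its reverse complement TGCCC, which contain the GGCA core known for the HIC family of repressors.
Pi4ka/Snap29, chr16:17405866-17405999: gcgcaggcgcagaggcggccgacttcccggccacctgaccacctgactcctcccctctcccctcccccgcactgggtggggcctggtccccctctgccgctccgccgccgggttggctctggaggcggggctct
Mrpl40/Hira, chr16:18876638-18876749: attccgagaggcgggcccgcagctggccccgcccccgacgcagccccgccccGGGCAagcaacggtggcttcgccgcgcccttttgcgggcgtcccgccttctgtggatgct
Tango2/Arvcf, chr16:18348099-18348181: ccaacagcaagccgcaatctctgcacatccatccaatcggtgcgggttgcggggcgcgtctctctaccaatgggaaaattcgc
Ranbp1/Trmt2a, chr16:18248695-18248882: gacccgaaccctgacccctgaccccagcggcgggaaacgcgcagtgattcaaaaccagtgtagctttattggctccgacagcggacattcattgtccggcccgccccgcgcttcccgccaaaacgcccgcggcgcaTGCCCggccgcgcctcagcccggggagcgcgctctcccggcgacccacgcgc
GGGCA, searched on both strands, occurs once between *Mrpl40* and *Hira* and once between *Ranbp1* and *Trmt2a*, and not in the other 2 stretches shown. The shorter core GGCA, not marked, also has 1 match between *Pi4ka* and *Snap29* and 0 between *Tango2* and *Arvcf*. It is common: 69.9% of RefSeq promoters hold it in the 134 bases before the start. The longer stretch between *Cdc45* and *Ufd1* was not searched. Of all RefSeq promoters, 26.5% hold GGGCA in the 112 bases before the start and 39.8% in the 188 bases before the start. These matches describe letters only, and binding was not measured in these data.

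*Hic2* checks the genotype labels. Here and below, values are given in the order of replicates 1, 2 and 3. For *Hic2* the wildtype arrays read 9.35, 9.36 and 8.91 and the mutant arrays 8.27, 8.23 and 8.37. The genotypes were well apart, at a difference of -0.92 (standard error 0.137, n = 3 per genotype), or 0.529 of the wildtype level. The adjusted p was 0.125 from limma, and 0.664 by the methods' t-test. By limma it was 0.0249 without wildtype replicate 3 and 0.148 to 0.586 without any other single array. In whole pools, *Hic2* signal left by cells without the deletion and signal left in every cell cannot be told apart. Correlations between arrays were 0.988 to 0.993 within and between genotypes. Of 8 cardiomyocyte markers 4 had a cluster, with array medians of 13.4 to 13.7, and their differences were -0.01 (*Tnnt2*), 0.03 (*Myl7*), 0.25 (*Nppa*) and -0.18 (*Nkx2-5*). Of 15 erythroid markers 13 were tested and all 13 had a higher mean in the mutant, their median per array being 7.69 to 8.58 in the wildtype and 8.70 to 9.53 in the mutant. This median did not overlap between the genotypes, so a fit with it as a covariate cannot separate blood RNA from genotype. Such a fit is given below as an alternative only, and the part of blood RNA in the differences was not tested.

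As a set, the 22q11 orthologues gave bright signals in the wildtype heart, and their signals in the mutant were close to those in the wildtype. Of the 36 with a cluster, 30 had a mean linear value above 100 in the higher genotype (a log2 value of 6.64), the filter of the paper's methods, and were tested. A place on the array describes brightness alone, since probes differ between clusters and their signals cannot be ranked as RNA abundance. On every wildtype array 19 of the 36 were above the 75th percentile of all 23332 clusters, 6 were above the 90th and 6 were below the 50th. These 6 are the genes that did not pass the filter. The 23332 clusters include 7317 without a gene. On the wildtype arrays the median of the 30 tested genes was 10.05, 9.97 and 9.79, beside 9.43, 9.37 and 9.18 for all clusters tested.

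**Figure D1:**
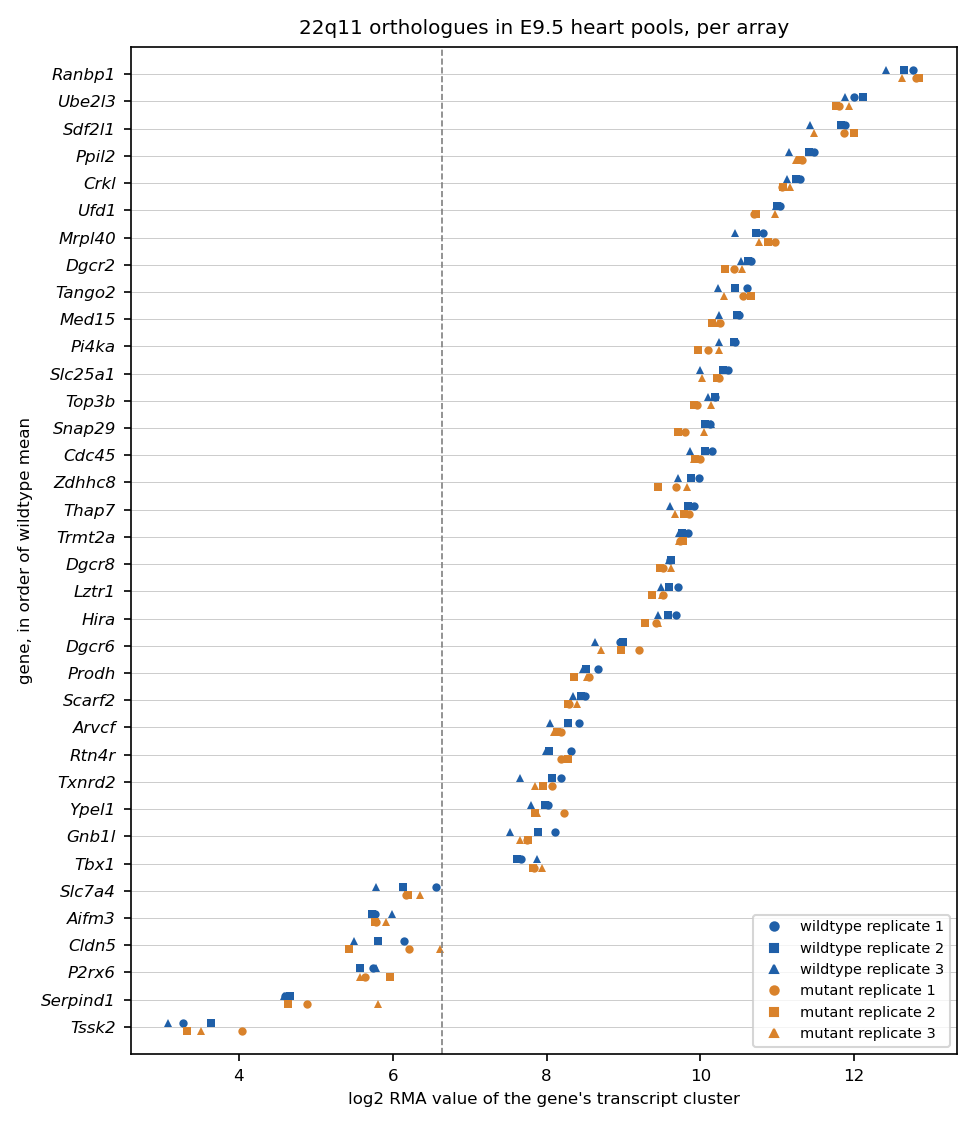
Log2 RMA value (horizontal axis) of each of the 36 genes with a cluster of its own (vertical axis, in order of wildtype mean), with 1 point per array: blue for wildtype, orange for mutant, and circle, square and triangle for replicates 1, 2 and 3. The dashed line marks the filter at 6.64, to the left of which lie *Slc7a4*, *Aifm3*, *Cldn5*, *P2rx6*, *Serpind1* and *Tssk2*, and orange and blue points overlap in most rows.

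None of the 30 tested genes (0) passed an adjusted p under 0.05 from limma, where 7 of 10439 clusters did (0.0671%). The methods' t-test passed 0 of all clusters after adjustment. Among the 30 genes the smallest adjusted p from limma was 0.606. At an unadjusted p under 0.05 from limma, 1 gene was lower (*Pi4ka*) and 0 were higher, against 5.9% of all clusters lower and 1.68% higher. Mutant and wildtype arrays did not overlap in 3 genes, all lower in the mutant (*Pi4ka*, *Snap29* and *Ufd1*), against 9.59% of all clusters lower and 2.82% higher. These shares of the orthologues, 3.33% and 10% for the lower genes, are near those of all clusters, so the counts are no result about the set. The number lower at an unadjusted p rested on single arrays. It was 4 without wildtype replicate 3 (*Pi4ka*, *Hira*, *Gnb1l* and *Med15*, where 18.2% of all clusters were lower). It was 3 without mutant replicate 3 (*Pi4ka*, *Snap29* and *Ufd1*, 16.7% of all clusters) and 0 without any one of the others (1.72% to 2.98%).

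The median difference of the 30 genes was -0.07, beside -0.09 over all clusters tested. Both medians rested on single arrays: with wildtype replicate 1 omitted they were -0.01 and -0.05, with wildtype replicate 3 omitted -0.16 and -0.14, and after quantile normalisation they were -0.01 and -0.03. Of the 30, 22 had a lower mean in the mutant (73.3%), as did 71.8% of all clusters. Their differences ran from -0.27 (*Pi4ka*, 0.826 of the wildtype level) to 0.21 (*Mrpl40*, 1.15 of it), and 16 of the 30 fell between the quartiles of all clusters (-0.18 and 0.02). In the main comparison the differences in whole-pool signal had the following bounds, which do not apply to changes within the deleted cells alone. The 95% interval of the difference, from limma and for each gene on its own, stayed within a 1.5-fold change either way for all 30 genes, with bounds between -0.53 and 0.48. The lowest bound was thus nearer to 0 than the difference of *Hic2*. With the erythroid median as a covariate, the intervals were wider and 11 of the 30 stayed within 1.5-fold. By the methods' t-test 27 did.

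**Figure D2:**
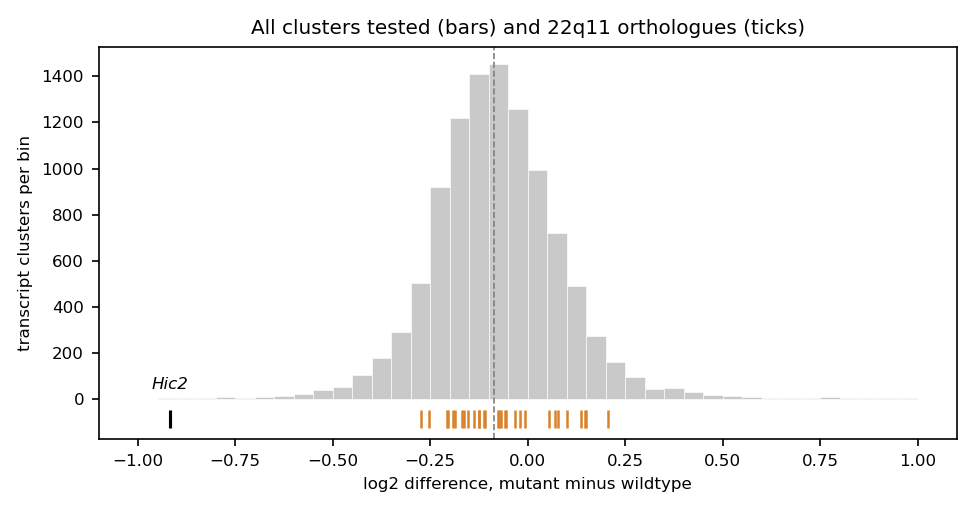
Histogram of the log2 difference, mutant minus wildtype, over all 10439 clusters tested (grey bars, clusters per bin of 0.05, drawn from -1 to 1), with an orange tick under the bars for each of the 30 orthologues tested and a black tick for *Hic2*. The ticks spread over the body of the histogram between -0.27 and 0.21, around the dashed line at the median of all clusters (-0.09), and *Hic2* lies apart at -0.92.

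The transcription and chromatin genes include those best known from heart defects. *Tbx1* had the lowest wildtype mean of the tested genes. Its values were 7.66, 7.62 and 7.87 in the wildtype and 7.84, 7.83 and 7.94 in the mutant. Wildtype replicate 3 lay above 2 of the mutant arrays, so the genotypes overlapped, and the difference was 0.15 (standard error 0.105, 95% interval -0.09 to 0.39, adjusted p = 0.632 from limma). Without wildtype replicate 3, *Tbx1* was the single listed gene higher at an unadjusted p under 0.05 from limma, where 1.39% of all clusters were higher. *Hira*, a histone chaperone that places the variant histone H3.3 into chromatin, was at 9.68, 9.58 and 9.45 in the wildtype and 9.42, 9.28 and 9.45 in the mutant. The lowest wildtype and the highest mutant array, both replicate 3, met at 9.45, with a difference of -0.19 (standard error 0.105, adjusted p = 0.608). *Med15*, a subunit of the Mediator complex, was at -0.19 and the zinc finger repressor *Thap7* at -0.02.

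Among adaptors, kinases and the ubiquitin pathway, *Crkl*, which couples receptor tyrosine kinases to Ras and Rap signalling, was above the 90th percentile of clusters. Its values were 11.30, 11.24 and 11.13 in the wildtype and 11.06, 11.07 and 11.17 in the mutant. The highest mutant array lay above the lowest wildtype array, and the difference was -0.13 (standard error 0.097, 95% interval -0.35 to 0.10, adjusted p = 0.655 from limma). *Ufd1*, which with NPL4 guides ubiquitylated proteins to the segregase VCP, was at 11.04, 10.99 and 10.98 in the wildtype and 10.69, 10.72 and 10.98 in the mutant. The wildtype arrays lay close together, and mutant replicate 3 was just below them while the other mutants were clearly lower, at a difference of -0.21 (standard error 0.108, adjusted p = 0.606). *Lztr1*, an adaptor that brings Ras proteins to a ubiquitin ligase, was at -0.14. *Ube2l3*, a ubiquitin-conjugating enzyme and the neighbour of *Hic2* on its other side, was one of the 2 brightest genes, at 11.997, 12.11 and 11.88 in the wildtype and 11.81, 11.76 and 11.93 in the mutant. Mutant replicate 3 was within the wildtype range (difference -0.16, standard error 0.105). The brightest was *Ranbp1*, a partner of the nuclear transport GTPase Ran, at 12.77, 12.65 and 12.42 in the wildtype and 12.80, 12.85 and 12.62 in the mutant, which overlapped as well (difference 0.15, standard error 0.122).

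*Pi4ka*, which makes phosphatidylinositol 4-phosphate at the plasma membrane, had the lowest difference of the 30. Its values were 10.46, 10.44 and 10.24 in the wildtype and 10.10, 9.97 and 10.24 in the mutant. The highest mutant array and the lowest wildtype array, both replicate 3, were 10.2396 and 10.2418, so the lack of overlap rests on the third decimal. The difference was -0.27 (standard error 0.113, 95% interval -0.53 to -0.02, unadjusted p = 0.0397, adjusted p = 0.606 from limma). With the replicate number as a block its unadjusted p was 0.0501. *Snap29*, a SNARE protein of membrane fusion and autophagy and the head-to-head partner of *Pi4ka*, was at 10.13, 10.06 and 10.14 in the wildtype and 9.81, 9.71 and 10.05 in the mutant. Again mutant replicate 3 lay next to the wildtype arrays and the other mutants below it, at a difference of -0.25 (standard error 0.113, unadjusted p = 0.0526, and 0.0405 with the block).

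Of the genes of RNA, protein synthesis and DNA, *Dgcr8*, the RNA-binding partner of DROSHA in microRNA processing, varied least in the wildtype. Its values were 9.60, 9.62 and 9.60 in the wildtype (SD 0.010) and 9.52, 9.47 and 9.62 in the mutant. The mutant range covered the wildtype one, and the difference was -0.07 (standard error 0.093, 95% interval -0.28 to 0.14, adjusted p = 0.793 from limma). *Mrpl40*, a protein of the mitochondrial ribosome, had the highest difference of the 30, with values of 10.81, 10.73 and 10.46 in the wildtype and 10.97, 10.88 and 10.76 in the mutant. Wildtype replicate 1 lay above mutant replicate 3 (difference 0.21, standard error 0.122, adjusted p = 0.615). Value and rank rested on wildtype replicate 3, without which *Mrpl40* was at 0.10 and *Tbx1* at 0.23, and with the erythroid covariate they were at 0.09 and 0.20. The topoisomerase *Top3b* was at -0.15, the replication factor *Cdc45* at -0.07, the cyclophilin *Ppil2* at -0.06 and the tRNA methyltransferase *Trmt2a* at -0.03.

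The mitochondrial and metabolic genes that were tested lay close to 0. *Txnrd2*, the mitochondrial thioredoxin reductase, was at -0.01 (95% interval -0.35 to 0.33), the citrate carrier *Slc25a1* at -0.06, the proline dehydrogenase *Prodh* at -0.08 and *Tango2* at 0.08. The membrane and junction genes *Zdhhc8*, a palmitoyltransferase, *Dgcr2*, *Arvcf*, a catenin of the p120 family, and *Scarf2* lay between -0.20 and -0.11, while the Nogo receptor *Rtn4r* was at 0.14. The endoplasmic reticulum chaperone component *Sdf2l1* was at 0.07, with values from 11.43 to 11.89 in the wildtype and from 11.48 to 12.004 in the mutant, and had the largest spread between mutant pools among the tested genes (SD 0.270). *Dgcr6* at 0.10, *Ypel1* at 0.05 and the WD-repeat gene *Gnb1l* at -0.13 complete the 30.

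The 6 genes below the filter were not tested. *Cldn5*, the claudin of endothelial tight junctions, was at 6.15, 5.81 and 5.50 in the wildtype and 6.21, 5.43 and 6.61 in the mutant. The mutant arrays held both the lowest and the highest value. The 8 endothelial and endocardial markers were bright in the same pools, with medians of 10.92, 10.97 and 10.97 on the wildtype arrays and 10.61, 10.49 and 10.98 on the mutant arrays. Their median difference was -0.23, with 7 of the 8 below 0, and 3 were lower at an unadjusted p under 0.05 from limma. Over all clusters the median was -0.09, with 71.8% below 0 and 5.9% lower at that threshold. The part of endothelial RNA in the *Cldn5* values was not tested. *Serpind1*, which encodes the plasma protein heparin cofactor II and lies within *Pi4ka*, was at 4.60, 4.67 and 4.59 in the wildtype and 4.89, 4.64 and 5.81 in the mutant. It had the largest spread within a genotype of all 36 genes (SD 0.611), mutant replicate 3 being far above the others. Of 7 liver endoderm markers 5 had a cluster (median per array 4.91 to 7.89 in the wildtype and 4.96 to 8.76 in the mutant, over the 3 that were tested), and *Alb*, *Afp*, *Ttr* and *Ahsg* were highest on that array too. *Alb* was at 8.28 there and from 4.57 to 5.33 elsewhere, and *Afp* at 9.44 and from 4.86 to 7.89, while *F2* stayed between 5.45 and 5.60 on all arrays. *Ttr* was at 8.76 on mutant replicate 3 and nearly as high, at 8.64, on wildtype replicate 1. *Afp* was at 7.89 on that wildtype array, where *Serpind1* was at 4.60. The part of liver or yolk sac RNA in the *Serpind1* value was not tested. *Tssk2*, a kinase of the testis, was the dimmest gene, at 3.27, 3.64 and 3.08 in the wildtype and 4.04, 3.33 and 3.51 in the mutant. *Aifm3*, the ATP-gated channel gene *P2rx6* and the amino acid transporter family gene *Slc7a4* lay between 5.57 and 6.56 on all arrays.

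The promoters of genes past the filter and of genes below it are set side by side here, with no test. Over the 300 bases from 250 before to 50 after the RefSeq start, the observed number of CpG dinucleotides relative to that expected from base composition had a median of 0.797 in the 30 tested genes, and was over 0.6 in 26 of them. In the 5 genes below the filter that had a promoter in the table, the median was 0.228, and 1 (*Aifm3*) was over 0.6. The median of all 32851 promoters, each counted alone, was 0.384, whereas a listed gene with several promoters was given their mean. GGGCA on either strand was found in 63.3% of the tested genes, in at least 1 of their promoters, and in 53.5% of all promoters counted singly. Some tested genes have several promoters, so these shares are not in the same unit. Most of the tested genes and most promoters hold it.

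Position beside *Hic2* was examined because the deleted gene lies within the cluster. Of all clusters tested, 71.8% had a lower mean in the mutant, and their median difference was -0.09. The 5 nearest tested genes on each side had a median difference of -0.13, and 8 of these 10 had a lower mean in the mutant. *Pi4ka* and *Snap29*, the nearest tested genes on 1 side, had the lowest differences of the 30, whereas *Ube2l3* and *Sdf2l1*, the nearest on the other side, were at -0.16 and 0.07. By human interval, the 7 tested genes of the central part all had a lower mean in the mutant (71.8% of all clusters), with a median of -0.14. The 18 of the proximal part had a median of -0.06 with 12 lower, and the 5 of the distal part had a median of -0.06 with 3 lower. Differences between these parts were not tested, and none of the values departs from 0 by as much as *Hic2*.

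**Figure D3:**
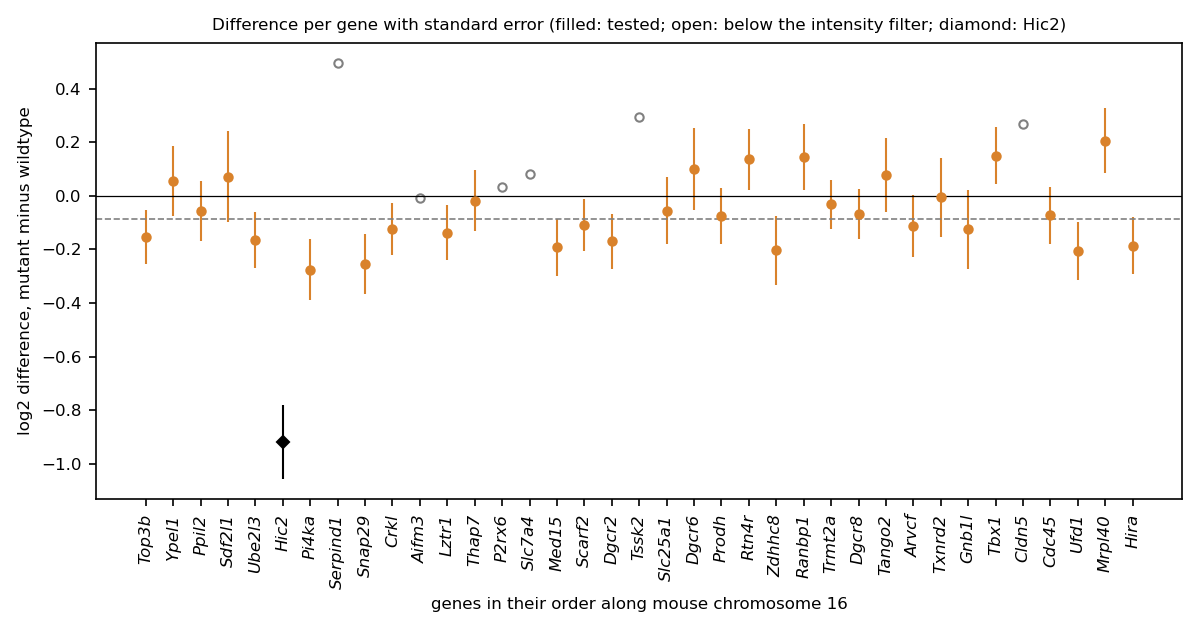
Log2 difference, mutant minus wildtype, for each gene with a cluster (points, with the standard error from limma as bars on the tested genes and *Hic2*), in gene order along mouse chromosome 16 and not to scale. Filled points were tested, open points were below the intensity filter, the black diamond is *Hic2*, and the dashed line is the median of all clusters (-0.09). *Hic2* at -0.92 stands between *Ube2l3* at -0.16 and *Pi4ka* at -0.27.

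The differences of head-to-head genes had the same sign in 2 of the 5 pairs and opposite signs in 3. These signs are uncertain: *Trmt2a*, *Cdc45*, *Tango2* and *Arvcf* each differed from 0 by less than the standard error. Of all clusters 71.8% were below 0, and signs were not counted over other pairs of genes. *Pi4ka* and *Snap29*, whose shared stretch is printed above, both had a lower mean in the mutant. The log2 difference between them on the same array (*Snap29* minus *Pi4ka*) was -0.33, -0.37 and -0.11 in the wildtype and -0.30, -0.25 and -0.19 in the mutant, a change of 0.02 with overlapping genotypes (exact two-sided permutation p = 0.9). *Mrpl40* and *Hira* lay on opposite sides of 0. *Hira* minus *Mrpl40* was -1.13, -1.15 and -1.01 in the wildtype and -1.55, -1.60 and -1.31 in the mutant. No mutant array reached the wildtype range, and the change was -0.39 (wildtype SD 0.079, mutant SD 0.155).
By an exact permutation test (two-sided) p was 0.1, which is the lowest value open to 3 against 3 arrays, and 0.25 after Benjamini-Hochberg adjustment over the 5 pairs. *Arvcf* minus *Tango2* changed by -0.19, also without overlap, from -2.19, -2.18 and -2.17 to -2.37, -2.53 and -2.21 (exact p = 0.1, adjusted 0.25). Mutant replicate 3 lay next to the wildtype arrays in that pair, whose change was -0.11 without mutant replicate 2. *Trmt2a* minus *Ranbp1* changed by -0.18 and *Ufd1* minus *Cdc45* by -0.13, both with overlap (exact p = 0.2 and 0.4). The *Mrpl40* and *Hira* stretch holds 1 GGGCA and the *Tango2* and *Arvcf* stretch none. Of the pairs with overlap, the *Ranbp1* and *Trmt2a* stretch also holds 1 and the *Pi4ka* and *Snap29* stretch none. A link between the motif and these changes was not tested. The pairs were chosen by distance between starts, after the values of the single genes had been seen. The change of a pair is the difference between its 2 single-gene differences, and *Mrpl40* had the highest of the 30. Non-overlap was not counted over other pairs of genes, so these pairs are no result about head-to-head genes. Among single clusters, 9.59% had no overlap and were lower, and 2.82% had none and were higher.

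**Figure D4:**
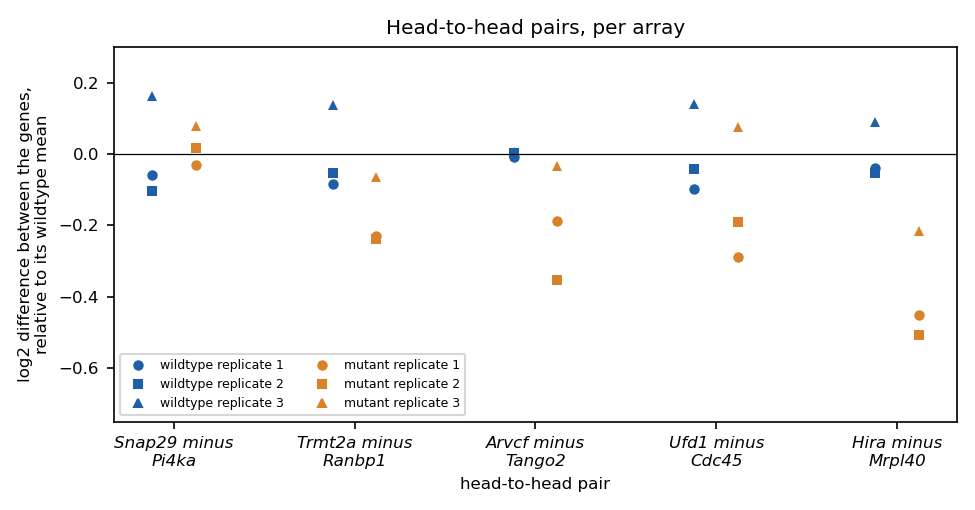
For each of the 5 head-to-head pairs (horizontal axis), the log2 difference between the plus-strand and the minus-strand gene on each array, relative to its wildtype mean (vertical axis). Blue is wildtype and orange is mutant, with circle, square and triangle for replicates 1, 2 and 3. The genotypes part in *Hira* minus *Mrpl40* (change -0.39) and narrowly in *Arvcf* minus *Tango2* (change -0.19), and overlap in the other pairs. Non-overlap was not counted over other pairs of genes.

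Much of the spread among pools was shared by many of the genes. Wildtype replicate 3 was the lowest wildtype array for 28 of the 30 genes, *Tbx1* and *Snap29* being the exceptions, and for 73.9% of all clusters. In the mutant, replicate 3 was highest for 13 genes (46.3% of all clusters) and replicate 2 lowest for 14 (53.3%). Within this pattern 13 genes, among them *Mrpl40*, *Ranbp1*, *Sdf2l1*, *Tango2* and *Txnrd2*, were lowest on replicate 3 in both genotypes (29.9% of all clusters). Another 11, among them *Hira*, *Crkl*, *Dgcr8*, *Ufd1* and *Pi4ka*, were lowest on replicate 3 in the wildtype and highest on replicate 3 in the mutant (28.3% of all clusters). The median deviation of the 30 genes from their own mean over all arrays was 0.14, 0.08 and -0.06 in the wildtype and -0.01, -0.08 and -0.03 in the mutant, and that of all clusters tested was 0.13, 0.08 and -0.07, and -0.01, -0.10 and -0.01. The SD within a genotype had a median of 0.13 in the wildtype and 0.10 in the mutant for the 30 genes, and of 0.13 and 0.14 for all clusters tested.

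The partners of these proteins were looked at by list. Of 16 tested genes of the *Tbx1* pathway, the pharynx and the second heart field, 15 had a lower mean in the mutant, with a median of -0.17, where 71.8% of all clusters had a lower mean and their median was -0.09. At an unadjusted p under 0.05 from limma 2 were lower, *Fgf10*, a growth factor of the second heart field, at -0.48, and *Ripply3*, a corepressor that binds TBX1, at -0.35, and 0 were higher, against 5.9% of all clusters lower. The endothelial and endocardial markers given above had a lower median still, and whether either list differs from other clusters was not tested. Of 8 markers of pharyngeal epithelium 7 had a cluster and 4 were tested, with array medians of 6.77 to 6.84 in the wildtype and 6.88 to 7.23 in the mutant. *Epcam*, *Cdh1*, *Foxa2* and *Shh* were highest on mutant replicate 3, *Pax9*, *Pax1* and *Krt18* were not, and the part of pharyngeal RNA in these values was not tested. Among 9 Crk adaptor and Ras-MAPK genes 1 was lower (*Cbl*, a ubiquitin ligase, at -0.34), and among 10 microRNA pathway genes 1 was lower (*Ago1*, at -0.39). Of 5 partners of HIRA, 10 subunits of the CDC45-MCM-GINS helicase and 3 partners of UFD1, 0 passed at an unadjusted or adjusted p from limma in either direction. No gene of these lists passed the adjusted threshold (0 by limma).
The joint cluster of *Septin5* and *Gp1bb*, the platelet glycoprotein Ib beta gene, was at -0.29 (standard error 0.146) and that of *Klhl22* and *Bod1* at -0.10 (standard error 0.113), and neither can be assigned to 1 gene. Outside the list, *Ess2*, which lies beside *Tssk2*, was at 0.933 of its wildtype level and *Car15* at 0.899 of it. *Zfp74*, listed with them although it lies on another mouse chromosome, was at -0.42 (unadjusted p = 0.0449 from limma).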

How the data were processed

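Whole E9.5 hearts of 2 genotypes were measured on 6 Affymetrix Mouse Exon 1.0 ST arrays, and all 6 were used. The authors deposited log2 values per gene, made by RMA in the Affymetrix Expression Console for the core set of gene predictions. For the software version and genome build, the sources used here give nothing. RMA can compress large changes, and the number of arrays limits precision.

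Genes were named from the platform annotation, and 14996 clusters had 1 gene, 1019 several and 7317 none. Clusters without a gene, or with a mean of 100 or less on the linear scale in both genotypes, were left out. Mutant and wildtype were compared on the other 10439 with limma 3.58.1 in R 4.3.3, with Benjamini-Hochberg adjustment over all of them. Pairs of genes were compared by exact permutation (scipy 1.17.1), and figures were drawn with matplotlib 3.10.9. Gene order and promoters came from RefSeq (GRCm38.p6). Of the 40 genes, 38 had a promoter there. The fits were run on simulated data with 200 genes changed and noise drawn independently for each gene. That setting does not cover spread shared by many genes.

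The genes, lists and the rule for genes given in full (heart-defect genes, those without overlap or at an unadjusted p under 0.05, the brightest, dimmest and most variable) were chosen with earlier results of these data known. *Zfp74*, put among the neighbours of the region, lies on another chromosome. Arrays of the same replicate number deviated together (r = 0.311, 0.142 and 0.458), although arrays of different numbers reached up to 0.303 (wildtype replicate 2 with mutant replicate 1), and were taken as pairs in a fit with a block. The sources do not say what the numbers stand for.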

Additional observations from a re-analysis of the deposited data

How the results depend on the processing

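None of the orthologues passed the adjusted threshold under any of 15 alternatives (0 in each by limma or the methods' t-test). Their smallest adjusted p was at least 0.151. Few of all clusters passed either: 0 by the methods' t-test, 1 with the erythroid covariate and at most 12, after quantile normalisation. The number lower at an unadjusted p under 0.05 was 1 in the main comparison (5.9% of all clusters). It was 0 by the methods' t-test (4.05% of all clusters) and 2 without the intensity filter (*Snap29*, *Pi4ka*, 4.96% of all clusters). It was 3 after median centring (11.2% of all clusters) and 8 with the erythroid covariate (24% of all clusters). When 1 array was omitted it was 0 to 4. It was 4 without wildtype replicate 3 (18.2% of all clusters) and 3 without mutant replicate 3 (16.7%). Without any other array it was 0 (1.72% to 2.98%). With the replicate block it was 1 (7.43% of all clusters), *Snap29* in place of *Pi4ka*. The number higher was 1 after quantile normalisation (*Mrpl40*, 3.29% of all clusters). It was 0 to 1 when 1 array was omitted (*Tbx1*, without wildtype replicate 3, 1.39% of all clusters). The median difference of the orthologues was -0.23 with the erythroid covariate, beside -0.23 for all clusters. The 95% intervals stayed within 1.5-fold for 11 of the 30 with that covariate, 27 by the methods' t-test and 27 to 30 when one array was omitted. The adjusted p of *Hic2* was below 0.05 after median centring (-0.92), quantile normalisation (-0.84) and omission of wildtype replicate 3. It was above 0.05 under the other alternatives. The difference of *Hic2* ran from -1.07 to -0.84 over the omitted arrays. *Dgcr8* was at 0.023 after quantile normalisation, and *Sdf2l1* ran from -0.072 to 0.221 over the omitted arrays, below 0 without wildtype replicate 3 or mutant replicate 2. Of 165 values of 11 single orthologues, these 3 changed sign. Many of the 165 could not: alternatives that changed only the test, the filter, the block or the averaging of clusters leave each difference as it was. The change of *Hira* minus *Mrpl40* ran from -0.48 to -0.33 and that of *Arvcf* minus *Tango2* from -0.34 to -0.11 over alternatives chosen after the data were seen. The log2 filter at 6.64 limits what can be said of the 6 dimmer genes.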
